A study of Homo sapiens with 12 samples.

Results

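The 7 genes described here were taken by a rule on gene symbols, not by their values. The rule takes every symbol that starts with KCN and a letter, SCN and a digit, or CACN and a letter, and leaves out symbols with a hyphen, of which there were 7. It found 7 of the 14582 named genes: KCNIP1, KCNIP2, KCNIP4, KCNE5, KCNRG, KCNQ1OT1 and KCNQ1DN. The RNA came from SK-MEL-2, an established human melanoma cell line, after 24 hours of treatment, and was read on 12 Affymetrix arrays. The arms were dabrafenib 100 nM with trametinib 10 nM and entinostat 1 µM (DTE), dabrafenib 100 nM with trametinib 10 nM (DT), entinostat 1 µM (E) and the vehicle alone (DMSO), with 3 arrays each. Dabrafenib blocks RAF kinases and trametinib blocks the MEK kinases below them, while entinostat blocks class I of the enzymes that remove acetyl groups from histones. All arms are the same cell line in culture. Replicates are named biological in the titles but technical in the description of the series. The p-values therefore reflect the spread among these arrays alone, which may be technical.

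The set was assembled as voltage-gated and potassium channels, and the genes that the rule found do not bear that name out. None of the 7 encodes a subunit that forms a channel pore. Of 15 pore-forming or auxiliary channel genes listed by name for a description, 0 are analysed here. KCNIP1, KCNIP2 and KCNIP4 encode KChIPs, calcium-binding proteins that attach to the inner face of Kv4 potassium channels. KCNE5 encodes a small single-pass membrane protein of the KCNE family of accessory subunits, and KCNRG encodes a soluble regulator that resembles the assembly domain of voltage-gated potassium channels. KCNQ1OT1 and KCNQ1DN encode no protein and are annotated as lncRNA.

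Voltage-gated potassium channels open on depolarisation and let potassium leave the cell, which brings the membrane back toward its resting voltage. Accessory subunits set how many channels reach the surface and how quickly they open and close. KChIPs bind the inner end of Kv4 proteins, raise their surface density and slow their inactivation, and single-pass DPP6 and DPP10 proteins join the same complex. KCNQ1OT1 is a long RNA read in the antisense direction from within KCNQ1, the gene of a slow voltage-gated potassium channel of the heart. It is made from the paternal chromosome, where it is known to keep a cluster of imprinted neighbours silent, and KCNQ1DN lies in the same imprinted region.

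KCNQ1OT1 and KCNQ1DN lie on chromosome 11, KCNIP1 on 5, KCNIP2 on 10, KCNIP4 on 4, KCNRG on 13 and KCNE5 on X. RefSeq promoter windows (build GRCh38.p14, 250 bases before to 50 bases after a start) matched 6 of the 7 genes, with 10 windows in all. KCNQ1OT1 had no window. The windows of the other genes that were above background on several arrays and of KCNRG are shown, since they differ in base composition. Capitals mark a GC box, searched as GGGCGG on both strands (CCGCCC on the strand printed), and every window is written in the direction of its gene.
KCNIP2, first start, chr10:101843751-101844050, minus strand: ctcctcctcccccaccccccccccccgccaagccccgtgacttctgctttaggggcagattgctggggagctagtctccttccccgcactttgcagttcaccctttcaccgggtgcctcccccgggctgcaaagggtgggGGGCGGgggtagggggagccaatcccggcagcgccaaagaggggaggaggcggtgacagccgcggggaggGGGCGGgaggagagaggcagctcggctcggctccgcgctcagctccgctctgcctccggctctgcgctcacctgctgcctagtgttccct
KCNIP2, second start, chr10:101839822-101840121, minus strand: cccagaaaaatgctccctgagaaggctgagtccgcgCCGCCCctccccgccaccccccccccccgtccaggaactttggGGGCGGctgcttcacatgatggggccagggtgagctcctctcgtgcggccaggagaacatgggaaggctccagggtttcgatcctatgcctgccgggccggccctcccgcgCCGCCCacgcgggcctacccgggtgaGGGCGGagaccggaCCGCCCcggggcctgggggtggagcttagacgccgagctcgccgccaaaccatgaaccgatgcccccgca
KCNQ1DN, chr11:2869783-2870082, plus strand: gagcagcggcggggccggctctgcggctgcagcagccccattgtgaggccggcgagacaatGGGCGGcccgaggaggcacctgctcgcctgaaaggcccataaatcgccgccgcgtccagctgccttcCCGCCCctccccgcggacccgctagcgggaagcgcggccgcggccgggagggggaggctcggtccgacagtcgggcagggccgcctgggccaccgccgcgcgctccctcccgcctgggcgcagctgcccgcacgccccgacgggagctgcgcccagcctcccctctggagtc
KCNE5, chrX:109625123-109625422, minus strand: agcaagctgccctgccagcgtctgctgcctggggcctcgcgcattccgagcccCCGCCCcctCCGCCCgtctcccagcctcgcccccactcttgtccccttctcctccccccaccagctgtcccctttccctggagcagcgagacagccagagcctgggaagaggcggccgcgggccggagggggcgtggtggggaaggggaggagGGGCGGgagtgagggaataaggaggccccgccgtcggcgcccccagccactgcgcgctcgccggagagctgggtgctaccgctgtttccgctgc
KCNRG, chr13:50015194-50015493, plus strand: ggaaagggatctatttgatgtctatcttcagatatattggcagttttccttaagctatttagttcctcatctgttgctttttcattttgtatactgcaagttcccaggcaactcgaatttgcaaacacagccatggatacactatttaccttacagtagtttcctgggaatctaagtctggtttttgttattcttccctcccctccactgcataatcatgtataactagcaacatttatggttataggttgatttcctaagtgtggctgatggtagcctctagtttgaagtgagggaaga

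The KCNIP2 windows held 2 and 5 GC boxes, the KCNE5 window 3 and the KCNQ1DN window 2. At least 1 match was found in 45% of all 35116 RefSeq windows of this length. Their GC content was 70.3% and 71.3% for KCNIP2, 73.3% for KCNE5 and 77.3% for KCNQ1DN, against a median of 58.7% over all windows. The KCNRG window had a GC content of 38.7%, 1 CpG against a median of 14, and 0 GC boxes. The windows not shown are those of KCNIP1 and KCNIP4, which were above background on 0 arrays. Their GC content was 53.0% and 74.7% for KCNIP1, with 0 and 6 GC boxes. For KCNIP4 it was 83.3%, 54.7% and 61.7%, with 4, 0 and 0 GC boxes. Neither a high GC content nor a lack of GC boxes was therefore particular to the windows shown. Searches on both strands for an E-box (CACGTG, in 7.26% of all windows), an AP-1 site (TGANTCA, in 7.71%) and a cAMP response element (TGACGTCA, in 1.85%) gave 1 match among the 10 windows, an AP-1 site in the second KCNIP4 window. These matches describe letters only.

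The arrays were not on one level in these values, and this touches each result below. The level of an array, taken as the geometric mean intensity of the genes brighter than the median gene, was 65.5 ± 3.78 in DTE, 103 ± 7.22 in DT, 143 ± 18.7 in E and 129 ± 15 in DMSO (SD, n = 3 each). The DTE arrays lay below all others in level, and the DT arrays below the DMSO arrays. A two-sided exact permutation test of 3 arrays against 3 cannot go below p = 0.1, and so cannot pass the threshold. This exact test gave p = 0.1 for DTE vs DT, DTE vs E, DTE vs DMSO and DT vs DMSO, and p = 0.4 for E vs DMSO. The level difference on the log2 scale was -0.97 for DTE vs DMSO, -0.32 for DT vs DMSO and 0.15 for E vs DMSO. Fewer cells, less RNA per cell and a rescaling of the deposited values cannot be told apart here. Each result is therefore given in deposited intensities and after quantile normalization, which puts all arrays on 1 distribution and gives changes relative to the other genes. On both scales differences are log2, tested with limma and adjusted by Benjamini-Hochberg over all genes, and a gene is called at an adjusted p under 0.05.

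All 9 of the measured melanocytic markers, of 10 listed, were above background on all 12 arrays, as were SYN1, SYT1 and MAP2 of the 4 measured neuronal markers. Of the 5 measured keratinocyte markers KRT14 was above background on 12 arrays, DSG3 on 6, and KRT5, KRT1 and KRT10 on 0. Of the 2 measured fibroblast markers LUM was above on 2 arrays and DCN on 0, and of the 3 measured muscle markers MYOG and DES were above on 12 and MYOD1 on 1. The name of the cell line comes from the sample titles. Detection alone does not identify the cells, since several markers of other cell types also gave signal. The summed level of the 4 measured neuronal markers was 385 to 438 in DTE, 169 to 202 in DT, 567 to 711 in E and 127 to 141 in DMSO. With DT, MAP2 and SYT1 were higher than in DMSO, but SYN1 was lower, at 23.5 to 24.4 against 31.9 to 34.0. The sum of the 9 melanocytic markers was 2459 to 2668 in DTE, 4248 to 4778 in DT, 4311 to 6179 in E and 5113 to 5842 in DMSO. S100B was its largest term, at 2473 to 2659 in DMSO, and the markers did not move as 1. By fitted difference from DMSO 3 were higher and 6 lower with DT, and also with E. With DT, MITF was lower, at 116 to 126 against 454 to 574, and TYRP1 higher, at 33.5 to 37.2 against 19.9 to 20.3. The part of these markers in the results below was not tested. Among the dimmest 25% of genes, the 95th percentile of intensity on an array was taken as its background level, which lay between 11.1 and 16.2. KCNQ1OT1, KCNQ1DN and KCNIP2 were above it on 12 of 12 arrays, KCNE5 on 9, KCNRG on 1, and KCNIP1 and KCNIP4 on 0.

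**Figure D1:**
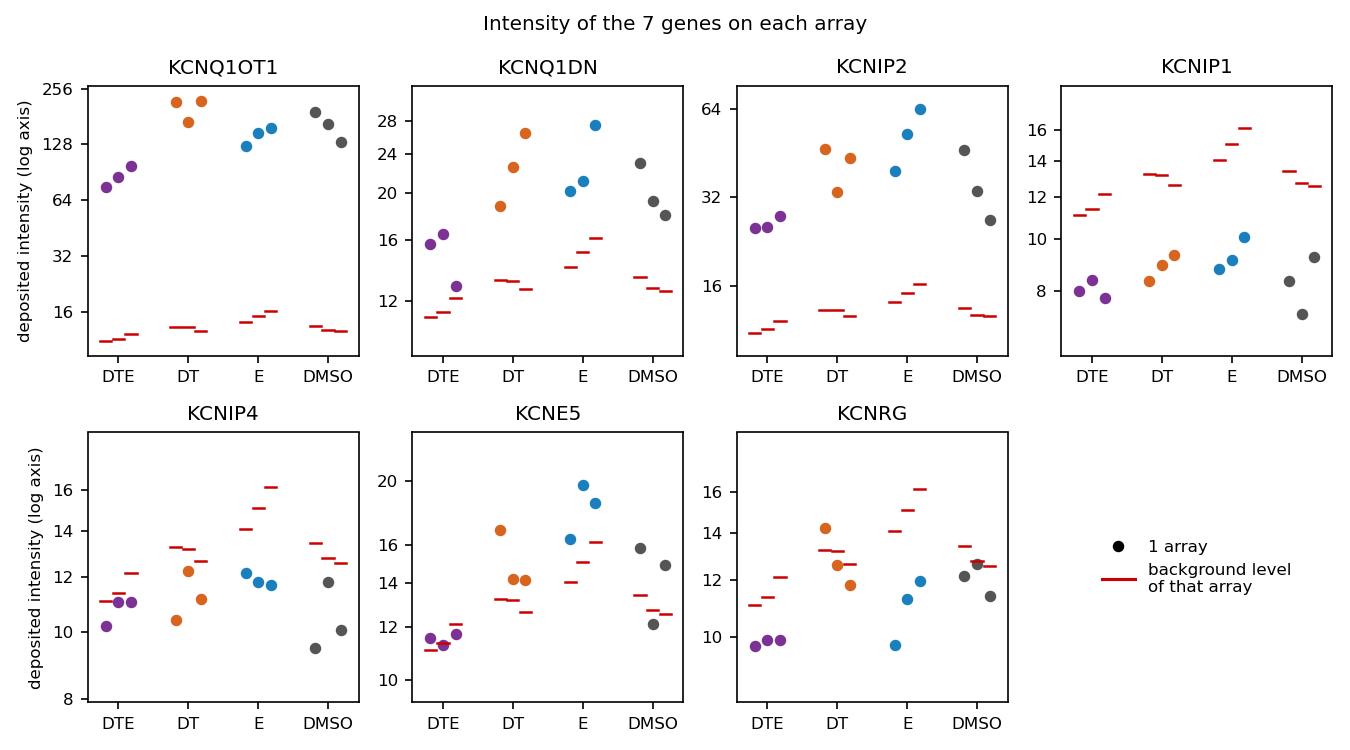
Deposited intensity (log axis) of the 7 genes on each array, 1 point per array, with the arms DTE, DT, E and DMSO side by side and a red line at the background level of that array. KCNQ1OT1 stands far above background at 75.4 to 220.3, KCNIP2 lies between 25.1 and 63.6, and KCNIP1 and KCNIP4 lie below background on all 12 arrays.

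KCNQ1OT1 was above background on every array. Its deposited intensity was 75.4, 85.5 and 98.0 on the DTE arrays, 217, 169 and 220.3 on the DT arrays, 125, 147 and 157 on the E arrays, and 192, 164 and 133 on the DMSO arrays. The DTE arrays lay below all 9 others, while the DT and E arrays overlapped the DMSO arrays. After quantile normalization the intensities were 137, 142 and 157 in DTE, 210.1, 189 and 208 in DT, 106, 106 and 101 in E, and 140.2, 121 and 122 in DMSO. On that scale the DT arrays were the highest and the E arrays the lowest, with neither overlapping DMSO, and the DTE arrays overlapped DMSO alone.

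With DT, KCNQ1OT1 rose relative to the other genes. The quantile-normalized difference from DMSO was 0.66 ± 0.09 (SE; adjusted p = 6.31e-05), a 1.58-fold higher level, and it stayed between 0.63 and 0.73 and called in all 12 fits that left out 1 array. In deposited intensities the difference was 0.31 ± 0.16 and missed the threshold (adjusted p = 0.158), with a 95% interval of -0.02 to 0.64. The brightest 25% of genes, to which it belongs, had a median difference of -0.33 in this comparison. Median centring of the arrays gave 0.51 (adjusted p = 0.00184), also a rise.

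With entinostat alone the gene moved the other way relative to the other genes. It was 1.22-fold lower in E than in DMSO after quantile normalization, at -0.29 ± 0.09 (adjusted p = 0.0216). This call was lost without DMSO replicate 1 and without E replicate 3, and the difference lay between -0.32 and -0.22 over the 12 fits. In deposited intensities the difference was -0.18 ± 0.16 (adjusted p = 0.443), and median centring gave -0.47 (adjusted p = 0.00309).

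Adding entinostat to the kinase inhibitors lowered KCNQ1OT1 on all 3 scales used. DTE was 2.33-fold below DT in deposited intensities, at -1.22 ± 0.16 (adjusted p = 1.29e-06), and 1.39-fold below after quantile normalization, at -0.48 ± 0.09 (adjusted p = 0.000798). Median centring gave -0.78 (adjusted p = 5.04e-05), and the quantile-normalized call held in 12 of 12 fits that left out 1 array. The median difference of the brightest 25% of genes was -0.73 in deposited intensities.

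The other contrasts of DTE depended on the scale. Against DMSO, KCNQ1OT1 was 1.88-fold lower in deposited intensities, at -0.91 ± 0.16 (adjusted p = 2.28e-05), less than the -1.09 of the median gene of its brightness, and the quantile-normalized difference was 0.18 ± 0.09 (adjusted p = 0.107). Against E the direction reversed with both values called, at -0.73 ± 0.16 in deposited intensities (adjusted p = 0.000238) and 0.47 ± 0.09 after quantile normalization (adjusted p = 0.00182). Median centring gave a called fall of -0.27 for DTE vs DMSO (adjusted p = 0.0373). For DTE vs E it gave 0.20 and did not pass the threshold (adjusted p = 0.12).

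**Figure D2:**
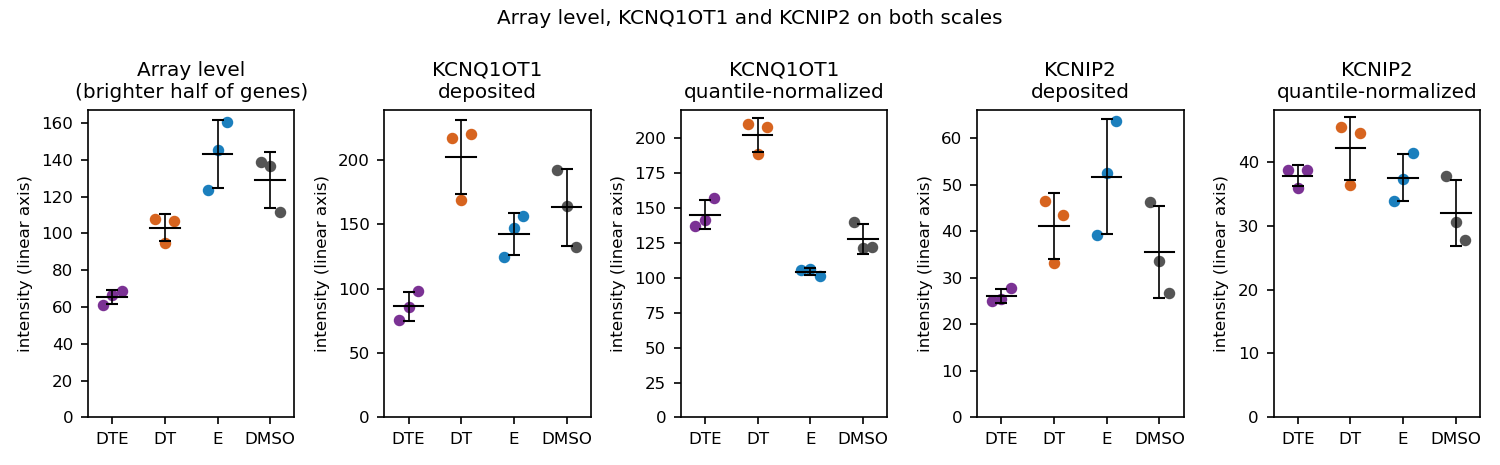
Array level (geometric mean intensity of the genes brighter than the median gene) and the intensities of KCNQ1OT1 and KCNIP2, deposited and quantile-normalized, on linear axes from 0. Points are arrays, long bars means and whiskers SD of 3 arrays, for DTE, DT, E and DMSO. KCNQ1OT1 averaged 86.3 in DTE and 202 in DT as deposited, and 145 in DTE and 202 in DT after quantile normalization, with E the lowest arm at 104 on that scale.

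KCNQ1 itself is not analysed here, and the sources used here do not give the strand that the probes read, so signal from KCNQ1 and from its antisense RNA cannot be told apart. The 8 protein-coding genes measured nearest to KCNQ1OT1, 4 on each side, were looked at after their values were seen. Position alone chose these genes, not imprinting, so their values are no test of the silencing described above. They were ASCL2, TSPAN32, CD81, TSSC4, NAP1L4, CARS1, OSBPL5 and ZNF195. With DT, 0 were called higher and 4 lower in deposited intensities, and 0 higher and 1 lower after quantile normalization, namely OSBPL5 at -0.32 (adjusted p = 0.0178). Over all genes 4.72% were called higher and 23.1% lower in deposited intensities, and 15.1% higher and 14.6% lower after quantile normalization. Their median difference was -0.42 in deposited intensities, against -0.12 over all genes. With E, 0 were higher and 1 lower on both scales. Over all genes 20.8% were higher and 4.81% lower deposited, and 15.1% higher and 16.3% lower after quantile normalization. The lower neighbour was TSSC4, at -0.61 deposited (adjusted p = 0.00298) and -0.71 after quantile normalization (adjusted p = 0.000293). In DTE vs DT 0 were higher and 6 lower deposited (54% of all genes), and 0 higher and 2 lower after quantile normalization (17.9% of all genes), TSSC4 at -0.71 (adjusted p = 0.000259) and NAP1L4 at -0.31 (adjusted p = 0.018). In DTE vs DMSO all 8 were lower deposited (60.8% of all genes), and 0 higher and 2 lower after quantile normalization (22.4% of all genes), TSSC4 at -0.84 (adjusted p = 4.14e-05) and NAP1L4 at -0.47 (adjusted p = 0.000832). In DTE vs E, where all 8 were called lower in deposited intensities (78.5% of all genes), 0 were higher and 2 lower after quantile normalization (9.99% of all genes), NAP1L4 at -0.29 (adjusted p = 0.038) and OSBPL5 at -0.38 (adjusted p = 0.0107). The shares of all genes called higher in deposited intensities were 4.09% for DTE vs DT, 4.26% for DTE vs DMSO and 0.247% for DTE vs E. After quantile normalization they were 16.4%, 20.5% and 10.1% in the same order.

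KCNQ1DN, the other non-coding transcript of the region, was also above background on every array. It had 15.6, 16.4 and 12.9 in DTE, 18.8, 22.5 and 26.5 in DT, 20.1, 21.1 and 27.6 in E, and 23.0, 19.2 and 18 in DMSO. The DTE arrays lay below all others, and the other arms overlapped each other. The difference was -0.42 ± 0.16 for DTE vs DMSO (adjusted p = 0.0247), -0.59 ± 0.16 for DTE vs DT (adjusted p = 0.00326) and -0.61 ± 0.16 for DTE vs E (adjusted p = 0.00149). After quantile normalization these became -0.10, -0.33 and 0.01 with none called (adjusted p = 0.659, 0.127 and 0.98), and median centring turned the values against DMSO and against E to 0.22 and 0.32. The call against DMSO was also lost without DMSO replicate 1 (-0.32) and without DTE replicate 3 (-0.32).

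KCNIP2 was the only KChIP gene above background. Its deposited intensity was 25.1, 25.4 and 27.7 on the DTE arrays, 46.6, 33.2 and 43.5 on the DT arrays, 39.1, 52.4 and 63.6 on the E arrays, and 46.2, 33.5 and 26.8 on the DMSO arrays. DTE did not overlap DT or E and did overlap DMSO, whose own arrays were widely spread. Entinostat alone raised it 1.47-fold, at 0.55 ± 0.19 (adjusted p = 0.0323), but the E arrays overlapped the DMSO arrays. That call was lost without DMSO replicate 2 (0.53), DMSO replicate 3 (0.37), E replicate 2 (0.53) or E replicate 3 (0.39), and after quantile normalization, where the difference was 0.24 ± 0.12 (adjusted p = 0.171).

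With DT, KCNIP2 was called only after quantile normalization, at 0.40 ± 0.12 (adjusted p = 0.0251), against 0.23 ± 0.19 in deposited intensities (adjusted p = 0.415) and 0.43 after median centring (adjusted p = 0.0234). The arrays behind it were 45.4, 36.4 and 44.5 in DT and 37.7, 30.5 and 27.7 in DMSO, which overlapped. Leaving out DMSO replicate 2, DMSO replicate 3, DT replicate 1 or DT replicate 3 ended the call, and the difference ranged from 0.30 to 0.52 over the 12 fits. In deposited intensities the difference was -0.64 ± 0.19 for DTE vs DT (adjusted p = 0.00517) and -0.96 ± 0.19 for DTE vs E (adjusted p = 6.29e-05). Neither was called after quantile normalization, at -0.15 and 0.01 (adjusted p = 0.39 and 0.959). Against DMSO the DTE difference was -0.41 ± 0.19 in deposited intensities (adjusted p = 0.058) and 0.25 ± 0.12 after quantile normalization (adjusted p = 0.122).

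A second KCNIP2 probe set was below background on every array, at 8.13 to 13.5, so it is no check of the first. KCNIP1 ranged from 7.24 to 10.1 and KCNIP4 from 9.49 to 12.2 over the 12 arrays, never above background. Neither was called in any of the 6 comparisons in deposited or quantile-normalized intensities. Both genes were not well above background, which leaves the level of their RNA unmeasured rather than at 0.

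KCNE5 stood close to background. Its intensity was 11.6, 11.3 and 11.7 in DTE, 16.8, 14.2 and 14.2 in DT, 16.3, 19.7 and 18.5 in E, and 15.9, 12.2 and 14.9 in DMSO. It was above background on 1 of 3 DTE arrays, 3 DT arrays, 3 E arrays and 2 of 3 DMSO arrays. DTE did not overlap any other arm, and E lay above DMSO on each array. With 1 of 3 DTE arrays above background, the size of a fall in DTE is uncertain. Against DMSO the DTE difference was not called, at -0.30 ± 0.14 in deposited intensities (adjusted p = 0.0594). After quantile normalization it was -0.11 ± 0.10 (adjusted p = 0.416), and these 2 arms overlapped. The fitted deposited difference was -0.66 ± 0.14 for DTE vs E (adjusted p = 0.000172) and -0.38 ± 0.14 for DTE vs DT (adjusted p = 0.0219), the second of which was lost without DT replicate 1 (-0.30), DTE replicate 1 (-0.39) or DTE replicate 2 (-0.37). For E vs DMSO it was 0.35 ± 0.14 (adjusted p = 0.0683), which passed without DMSO replicate 1 (0.43) or E replicate 1 (0.43). After quantile normalization none of these passed, at -0.18, -0.20 and 0.07 for DTE vs E, DTE vs DT and E vs DMSO (adjusted p = 0.236, 0.135 and 0.637), and median centring turned DTE vs E and DTE vs DT to 0.27 and 0.06.

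KCNRG was above background on 1 array only, of the DT arm. Its intensity was 9.69, 9.90 and 9.89 in DTE, 14.2, 12.6 and 11.8 in DT, 9.74, 11.3 and 12 in E, and 12.2, 12.7 and 11.4 in DMSO. The DTE arrays lay below the DT and DMSO arrays without overlap. For DTE vs DMSO 0 of 3 arrays of either arm were above background, so this separation is not a measured difference. It was not called, at -0.30 ± 0.13 deposited (adjusted p = 0.0536) and -0.16 ± 0.08 after quantile normalization (adjusted p = 0.133). Against DT the difference was -0.39 ± 0.13 in deposited intensities (adjusted p = 0.0156) and -0.24 ± 0.08 after quantile normalization (adjusted p = 0.033). Since 0 of 3 DTE arrays and 1 of 3 DT arrays were above background, no fold is given and the difference is not a measured one. The deposited call was lost without DT replicate 1 (-0.31), the quantile-normalized call without DT replicate 1 and without any 1 of the DTE arrays, and median centring turned the value to 0.06. For E vs DMSO a call after quantile normalization (-0.34 ± 0.08, adjusted p = 0.0059) compared a pair of arms that were not above background, so no fold is given. KCNRG overlaps TRIM13 and DLEU2, and TRIM13, a ubiquitin ligase gene, was lower in DTE than in DT on both scales, at -1.05 deposited (adjusted p = 2.87e-05) and -0.49 after quantile normalization (adjusted p = 0.032).

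**Figure D3:**
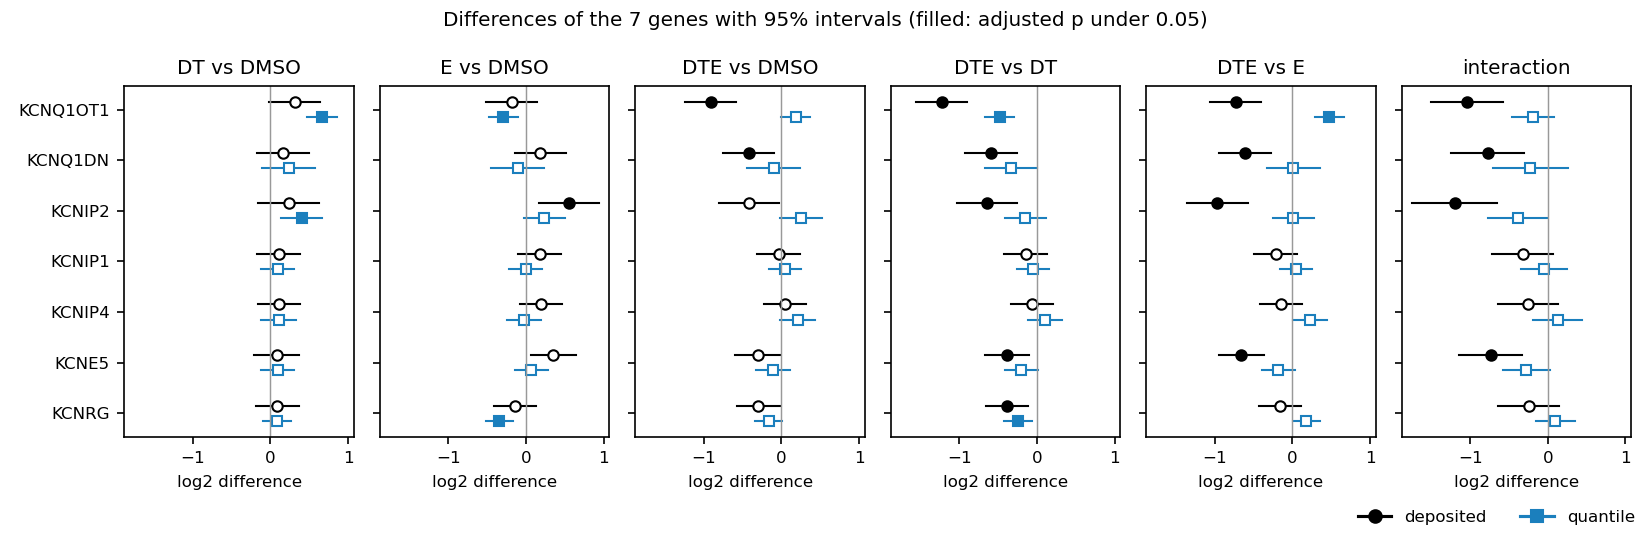
Log2 difference of the 7 genes in the 6 comparisons with 95% intervals, circles for deposited and squares for quantile-normalized intensities, filled at an adjusted p under 0.05. For DTE vs E the KCNQ1OT1 circle at -0.73 and square at 0.47 lie on opposite sides of 0, and for DTE vs DT both lie below 0, at -1.22 and -0.48.

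Counted over the 7 genes, most calls in deposited intensities were falls in DTE, as they were over all genes. In DT vs DMSO 0 were higher and 0 lower in limma, against 4.72% and 23.1% of all genes, and 0 passed an unadjusted p of 0.05 either way. In E vs DMSO 1 was higher and 0 lower, against 20.8% and 4.81% of all genes. In DTE vs DMSO 0 were higher and 2 lower, against 4.26% and 60.8%. In these comparisons the medians of the 7 genes were 0.11, 0.19 and -0.30, against -0.12, 0.14 and -0.54 over all genes. KCNIP1, KCNIP4 and KCNRG are among the dimmest 25% of genes. That 25% had a median of -0.07 in DTE vs DMSO, against -1.09 for the brightest 25%. The counts and medians here and below thus set the 7 against genes of unlike brightness.

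In DTE vs DT 0 were higher and 5 lower, against 4.09% and 54% of all genes. In DTE vs E 0 were higher and 4 lower, against 0.247% and 78.5%. The interaction, the effect of entinostat with the kinase inhibitors minus its effect without them, was negative and called in 4, against 62.5% of all genes, and positive and called in 0, against 0.206%. These comparisons share arms, so their counts are not separate evidence. The medians of the 7 were -0.39, -0.61 and -0.73, against -0.41, -0.82 and -0.63 over all genes.

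After quantile normalization, which removes the level, fewer calls were left. In DT vs DMSO 2 genes were higher, KCNQ1OT1 and KCNIP2, and 0 lower, against 15.1% and 14.6% of all genes. In E vs DMSO 0 were higher and 2 lower, KCNQ1OT1 and KCNRG, against 15.1% and 16.3%. In DTE vs DMSO 0 were called either way in limma, against 20.5% higher and 22.4% lower over all genes, and 0 passed an unadjusted p of 0.05. KCNQ1OT1 is among the called genes in each of the 4 comparisons that had a call on this scale. The 4 share arms, so this recurrence is not separate evidence. In DTE vs DT 0 were higher and 2 lower, KCNQ1OT1 and KCNRG, against 16.4% and 17.9%. In DTE vs E 1 was higher, KCNQ1OT1, and 0 lower, against 10.1% and 9.99%. The interaction was called in 0 genes either way in limma, against 2.08% positive and 2.12% negative over all genes, and 1 gene, KCNIP2, passed an unadjusted p of 0.05.

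Genes that work with these channels were read from lists of channel partners and of other channel families. Of 26 listed partners and anchors of voltage-gated channels 18 were measured. With DT 1 was higher and 3 lower in deposited intensities, against 4.72% and 23.1% of all genes, and 3 higher and 3 lower after quantile normalization, against 15.1% and 14.6%. The partner higher on both scales was DPP6, the transmembrane protein that shares the Kv4 complex with KChIPs. It had 13.8, 13.1 and 16.1 in DTE, 27.7, 22.3 and 24.9 in DT, 16.2, 19.8 and 16.5 in E, and 19.2, 18.6 and 15 in DMSO. The DT arrays lay above all 9 others. DPP6 was higher in DT than in DMSO by 0.51 ± 0.15 deposited (adjusted p = 0.0103) and 0.57 ± 0.11 after quantile normalization (adjusted p = 0.00118). Adding entinostat took DPP6 down again, with DTE vs DT at -0.80 deposited (adjusted p = 6.59e-05) and -0.57 after quantile normalization (adjusted p = 0.00106). DPP10 was above background on no array.

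The 3 partners called lower with DT in deposited intensities included FGF13 and FGF14, intracellular FGF proteins that bind voltage-gated sodium channels. The other was AKAP5, a kinase anchor that was above background on no array. FGF13 had 43.0, 30.8 and 34.3 in DT and 66.7, 62.3 and 52.2 in DMSO, without overlap. Its difference was -0.75 ± 0.17 deposited (adjusted p = 0.00155) and -0.48 ± 0.10 after quantile normalization (adjusted p = 0.00252). FGF14 was not well above background in DT and was lower there by at least 1.10-fold in deposited intensities (adjusted p = 0.047). On that scale 23.1% of all genes were called lower with DT, so this fall is not set apart from the level. With E 5 partners were higher and 0 lower in deposited intensities, against 20.8% and 4.81% of all genes, and 3 higher and 2 lower after quantile normalization, against 15.1% and 16.3%. These counts are close to those shares of the 18. GEM, one of the 5, is a small GTPase that binds calcium channel beta subunits and reduces calcium current. GEM had 24.1, 31.1 and 37.4 in E and 10.3, 12 and 13.0 in DMSO, without overlap. Since only 1 of the 3 DMSO arrays was above background, the size of its rise is uncertain. The fitted difference was 1.38 ± 0.16 deposited (adjusted p = 6.53e-07) and 0.98 ± 0.15 after quantile normalization (adjusted p = 0.000249). REM1, of the same GTPase family, rose by 0.82 (adjusted p = 0.00121) and 0.47 (adjusted p = 0.0356) on these scales.

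AKAP9, whose protein anchors kinases to the KCNQ1 channel complex, was called in DT, E and DTE on at least 1 scale. Its quantile-normalized difference was 0.45 for DT vs DMSO (adjusted p = 0.000764), -0.31 for E vs DMSO (adjusted p = 0.00954), -0.40 for DTE vs DT (adjusted p = 0.00161) and 0.36 for DTE vs E (adjusted p = 0.00643). In deposited intensities it was 0.11 for DT vs DMSO (adjusted p = 0.687), -0.20 for E vs DMSO (adjusted p = 0.379), -1.15 for DTE vs DT (adjusted p = 2.14e-06) and -0.84 for DTE vs E (adjusted p = 3.53e-05).

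Among 18 listed genes of cation channels related to the voltage-gated families, 12 were measured. With E 4 were higher and 0 lower in deposited intensities, against 20.8% and 4.81% of all genes, and 3 higher and 0 lower after quantile normalization, against 15.1% and 16.3%. HCN2, a pacemaker channel that opens on hyperpolarisation, had 18.1, 25 and 25.3 in E and 13.5, 14.3 and 12 in DMSO, without overlap. HCN2 rose by 0.77 deposited (adjusted p = 0.00112) and 0.44 after quantile normalization (adjusted p = 0.0271). CNGA4, a modulatory subunit of the cyclic-nucleotide-gated channel of olfactory neurons, rose by 0.60 (adjusted p = 0.00475) and 0.27 (adjusted p = 0.0373), and CNGA1, also called, was above background on no array. With DT 0 were higher and 1 lower in deposited intensities, the lysosomal channel gene TPCN1 at -0.84 (adjusted p = 0.000163), which was -0.57 after quantile normalization (adjusted p = 0.000833). On that scale 1 was higher and 1 lower, the higher one being TPCN2, another lysosomal channel gene, at 0.36 (adjusted p = 0.0437), whose deposited difference was 0.03 (adjusted p = 0.932). Over all genes 4.72% were higher and 23.1% lower deposited, and 15.1% higher and 14.6% lower after quantile normalization.

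All 10 genes of a list around REST were measured, REST being the repressor that silences many neuronal channel genes in other cells by recruiting histone deacetylases. REST had 84.2, 91.0 and 91.1 in DTE, 179.9, 143 and 202 in DT, 124, 137 and 164 in E, and 159, 167 and 126 in DMSO. The DTE arrays lay below all others, and DT and E overlapped DMSO. With DT REST was higher by 0.56 ± 0.08 after quantile normalization (adjusted p = 0.00015), while the deposited difference was 0.21 ± 0.15 (adjusted p = 0.353). With DT 0 of the 10 were higher and 3 lower in deposited intensities (4.72% and 23.1% of all genes), and 2 higher and 1 lower after quantile normalization (15.1% and 14.6%). With E 3 were higher and 0 lower (20.8% and 4.81% of all genes), and 2 higher and 2 lower after quantile normalization (15.1% and 16.3%), HDAC1 being called higher on both scales at 0.51 (adjusted p = 0.0117) and 0.41 (adjusted p = 0.00111).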

How the data were processed

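Total RNA of SK-MEL-2 cells was hybridised to 12 Affymetrix arrays, with ERCC spike-in mix added before extraction per the labels' protocols. The authors deposited linear intensity values, which span 2.35 to 8596. Per the submitters' processing notes the tools were RMA and Transcriptome Analysis Console. Array medians of 16.8 to 31.9 show that the deposited arrays are not on 1 distribution, and the sources used here do not give the rescaling step. Of 29398 probe sets, 14750 (50.2%) had 1 gene symbol, 0 several and 14648 none in the annotation used. For a gene with several probe sets the brightest, by its mean over the 12 arrays, was kept, which left 14582 genes. Log2 of the intensity, with no pseudocount and no filter, was the response in lmFit and eBayes of limma 3.58.1 under R 4.3.3, with a mean for each group and Benjamini-Hochberg adjustment within each of 6 comparisons. The design had foreseen log2 values, so log2 was taken first. The number of arrays limits the precision.

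Genes called at an adjusted p under 0.05 and above background on at least 2 of 3 arrays of the higher group were to be named, with up to 4 genes of each related list. KCNRG, KCNIP1, KCNIP4 and the genes beside KCNQ1OT1 and KCNRG were named in addition. The members, lists and tests were chosen with earlier results of these data known. Bounds for a group not above background take the higher of the array's background level and the gene's own signal. Alternatives were quantile normalization, median centring, a replicate block, a filter on dim genes, a fit on the compared arms alone, eBayes with trend and robust, the mean of a gene's probe sets, array weights, a pseudocount of 16 and leaving out each array, the last also after quantile normalization, which was added after the data were seen. The fit was tested on simulated data. Same-numbered arrays correlated at -0.22 to 0.13 in their deviations, so the numbers were not taken to pair arrays. RefSeq supplied symbols, chromosomes and promoter windows.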

Additional observations from a re-analysis of the deposited data

Results flagged for a closer look

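The effect of entinostat differed between cells with and without dabrafenib plus trametinib for 4 of the 7 genes in deposited intensities, by limma's test of the interaction, which called 62.5% of all genes in the same direction, so the count is near that of all genes. The interaction was -1.2 ± 0.27 for KCNIP2 (SE; adjusted p = 0.00097), -1.04 ± 0.23 for KCNQ1OT1 (adjusted p = 0.00082), -0.77 ± 0.23 for KCNQ1DN (adjusted p = 0.0063) and -0.73 ± 0.2 for KCNE5 (adjusted p = 0.0036). The array level itself gave -0.80 in this contrast, and the median over all genes was -0.63. After quantile normalization the values were -0.39, -0.19, -0.22 and -0.27 in the same order, and none was called (adjusted p = 0.26, 0.46, 0.68 and 0.32).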

How the results depend on the processing

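The scale between arrays moved these results most. After quantile normalization the calls among the 7 genes were 2 higher in DT vs DMSO, 0 higher and 2 lower in E vs DMSO, 0 lower in DTE vs DMSO, 2 lower in DTE vs DT, 1 higher and 0 lower in DTE vs E and 0 negative in the interaction. After median centring they were 3 higher in DT vs DMSO, 0 higher and 2 lower in E vs DMSO, 4 higher and 1 lower in DTE vs DMSO, 1 higher and 1 lower in DTE vs DT, 3 higher and 0 lower in DTE vs E, and 1 positive and 0 negative in the interaction. Over all genes median centring called 15.7% higher and 17.7% lower in DT vs DMSO, 11.7% and 26.1% in E vs DMSO, 37.8% and 31.7% in DTE vs DMSO, 24.1% and 25.6% in DTE vs DT, 36.2% and 19.3% in DTE vs E, and 12.8% positive and 4.58% negative in the interaction. Array weights gave 2 higher in E vs DMSO and 5 lower in DTE vs DMSO, and a pseudocount of 16 gave 0 and 1. Of the 12 counts over all genes, 3 also moved clearly with array weights and 2 with the pseudocount. These changes are therefore not read as particular to the 7 genes. In DTE vs DMSO the median-centred rises were KCNE5, KCNIP1, KCNIP4 and KCNRG, and the fall was KCNQ1OT1. The rise in DTE vs DT was KCNIP4, and those in DTE vs E were KCNIP1, KCNIP4 and KCNRG. KCNRG was also the positive interaction. KCNIP1 and KCNIP4 were above background on 0 arrays, KCNRG on 1 and KCNE5 on 9. The rises of KCNIP1, KCNIP4 and KCNRG are therefore not measured ones. The cause of these moves between scales was not tested.

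Quantile normalization reversed 15 values. For E vs DMSO they were KCNIP1 -0.0025, KCNIP4 -0.022 and KCNQ1DN -0.11. For DTE vs DMSO they were KCNIP1 0.047, KCNIP2 0.25 and KCNQ1OT1 0.18, and for DTE vs DT KCNIP4 0.10. For DTE vs E they were KCNIP1 0.049, KCNIP2 0.014, KCNIP4 0.23, KCNQ1DN 0.0092, KCNQ1OT1 0.47 and KCNRG 0.18, and for the interaction KCNIP4 0.13 and KCNRG 0.10. Of these only KCNQ1OT1 in DTE vs E was called, and it lay between 0.42 and 0.52 when each array was left out (0.49 without E replicate 2 or DTE replicate 2, 0.45 without E replicate 3). Median centring reversed 21. For E vs DMSO they were KCNIP1 -0.11, KCNIP4 -0.095 and KCNQ1DN -0.10, and for DTE vs DMSO KCNE5 0.34, KCNIP1 0.61, KCNIP2 0.23, KCNQ1DN 0.22 and KCNRG 0.35. For DTE vs DT they were KCNE5 0.062, KCNIP1 0.30, KCNIP4 0.38 and KCNRG 0.059. For DTE vs E they were KCNE5 0.27, KCNIP1 0.71, KCNIP4 0.79, KCNQ1DN 0.32, KCNQ1OT1 0.20 and KCNRG 0.77, and for the interaction KCNIP1 0.41, KCNIP4 0.48 and KCNRG 0.48. Array weights turned KCNIP1 in DTE vs DMSO to 0.045.

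Leaving out each array gave 0 to 2 higher in E vs DMSO, 1 to 5 lower in DTE vs DMSO, 3 to 5 lower in DTE vs DT, 4 to 4 lower in DTE vs E and 4 to 4 negative in the interaction. Of all 14582 genes these fits called 2175 to 3867 higher in E vs DMSO and 8051 to 9097 lower in DTE vs DMSO. They called 6710 to 8179 lower in DTE vs DT, 10768 to 11688 lower in DTE vs E and 7685 to 10180 negative in the interaction. Among the 7 genes the DTE vs DMSO count was 1 without DMSO replicate 1 or DTE replicate 3, 4 without DMSO replicate 3 or E replicate 3 and 5 without E replicate 1, and DTE vs DT gave 3 without DT replicate 1. The sign turned in some of these fits for KCNE5 in DT vs DMSO (-0.034 to 0.16), KCNIP1 in DTE vs DMSO (-0.13 to 0.047) and KCNIP4 in DTE vs DMSO (-0.017 to 0.14). The replicate block changed no call of the 7 genes, with the KCNQ1OT1 interaction at -1.04. The level taken as the median of all genes was -0.64 for DTE vs DMSO, -0.45 for DTE vs DT and -0.93 for DTE vs E. Signal limits KCNIP1, KCNIP4 and KCNRG, which a filter on dim genes removed.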

Other observations

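TMEM63C, a gene of the TMEM63 family of mechanosensitive channels, was higher with entinostat both without and with the kinase inhibitors. It had 73.7, 88.3 and 79.8 in E and 24.6, 35.2 and 24.2 in DMSO, and 37.2, 40.3 and 47.6 in DTE and 25.7, 27.4 and 27.0 in DT. Neither pair overlapped. The difference was 1.55 ± 0.15 deposited for E vs DMSO (adjusted p = 4.31e-08) and 1.18 ± 0.13 after quantile normalization (adjusted p = 1.92e-05), and for DTE vs DT it was 0.64 ± 0.15 (adjusted p = 0.00106) and 1.27 ± 0.13 (adjusted p = 7.32e-06). Of the 10 measured genes of its list of 32 TRP, PIEZO and TMEM63 channels, 3 were called higher and 1 lower with E in deposited intensities (20.8% and 4.81% of all genes), and 3 higher and 3 lower after quantile normalization (15.1% and 16.3%).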
